A study of Mus musculus with 9 samples.

Results

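The genes described here encode the transcriptional coactivator YAP (Yap1), its paralog TAZ (Wwtr1), the 4 TEAD factors that bring both to DNA (Tead1, Tead2, Tead3 and Tead4), and Vgll4, a cofactor that competes with YAP for TEAD. They were chosen by gene symbol, and all 7 were found among the 47729 Ensembl genes of the deposited count table. The table holds bulk RNA sequencing of whole mouse retinas in 9 libraries, 3 in each of 3 groups, all on a C57Bl6/J background. Yap CKO retinas came from mice homozygous for a floxed Yap allele that also carried Rax-CreERT2, a Cre recombinase activated by tamoxifen and meant to act in Müller cells, the radial glia of the retina. Control retinas had the same floxed allele and no Cre. Both of these groups were injected with 4-hydroxytamoxifen at postnatal day 10 (P10) and taken at P60. C57 retinas were wild type, were taken at P30, carry no mention of a floxed allele or an injection, and were re-analysed from an earlier series. Library names of both P60 groups include MNU, letters that in retinal research commonly stand for N-methyl-N-nitrosourea, a toxin of photoreceptors, but the labels describe no such treatment, dose or time. The genotype entry of the control samples repeats the name Yap CKO, so their grouping rests on the description of the study's design and their titles. Because the Cre is meant for Müller cells, Yap1 in all other cells of the retina should remain, and the labels do not say which exon is floxed.

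YAP and TAZ are the nuclear effectors of the Hippo pathway. When the kinases MST and LATS are active, they phosphorylate YAP and TAZ, which are then held in the cytoplasm by 14-3-3 proteins or degraded, and when the kinases are idle the coactivators enter the nucleus and bind TEAD factors to switch on growth and wound-response genes. In the retina, YAP and TEAD are best known from Müller glia, which are quiescent in the healthy tissue and become reactive after injury.

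The P60 libraries held 34739679 to 37629264 counts and the C57 libraries 13760765 to 16808499. One C57 column could be tied to the group but to no single sample, and it is called the unnumbered C57 library. Each library came from 1 retina. Levels below are counts scaled to library size (CPM), adjusted by TMM over all 9 libraries. Rod photoreceptor markers were detected in every library, but their mean log2(CPM + 1) over 10 genes was 5.67 to 9.77 in Yap CKO and 7.44 to 9.66 in control, against 12.1 to 12.3 in C57. Of 10 markers of Müller glia, none was at 0 in any group, and their mean log2(CPM + 1) was 6.57 to 6.80 in Yap CKO and 6.64 to 7.09 in control, against 8.45 to 8.57 in C57. Lens markers, foreign to the retina, summed to 1090 CPM in Yap CKO 3 and to at most 15.8 CPM in any library of the control and C57 groups. Yap CKO 2 also held some: its lens mean log2(CPM + 1) was 1.53, against at most 0.943 in control and 1.14 in C57. The value in Yap CKO 3 was 5.41 and that in Yap CKO 1 was 0.376. Y-linked transcripts marked Yap CKO 3, all 3 controls and C57 2 as male, and not the other 4 libraries. In whole retinas, fewer cells of a type and less RNA per cell cannot be told apart. Nothing says that the retinas of a group came from separate animals, so p-values measure the spread between these samples only.

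All positions are from GENCODE M21, which is built on GRCm38. Yap1 (ENSMUSG00000053110) lies on the minus strand of chr9:7931999-8004596 and Wwtr1 (ENSMUSG00000027803) on the minus strand of chr3:57455649-57575910. Tead1 (ENSMUSG00000055320) and Tead2 (ENSMUSG00000030796) are on the plus strand of chr7:112679318-112906807 and chr7:45215753-45233644. Tead3 (ENSMUSG00000002249) is on the minus strand of chr17:28331671-28350817, while Tead4 (ENSMUSG00000030353) and Vgll4 (ENSMUSG00000030315) are on the minus strand of chr6:128224288-128300823 and chr6:114860628-114969994. All are protein-coding, and counts cover their exons as a whole. The only annotated exons that overlap theirs are 116 bases of Gm20416 for Yap1 and 13 bases of Cd37 for Tead2, both on the opposite strand and with 1 and 59 counts over the 9 libraries.

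RefSeq promoter windows (GRCm38.p6, 250 bases before to 50 after a start) were available for 5 of the 7 genes, in 8 windows. They are shown because YAP and TAZ have no DNA-binding domain of their own and reach DNA through TEAD, whose core motif is GGAATG, searched here on both strands. The motif was present in 6 of the 8 windows and in 4 of the 5 genes, Tead2 being the exception. Windows of 1 gene overlap. Of all 32851 windows 14.7% held it, and of all 27025 genes 16.6% held it in at least 1 window. The 4 stretches below lie before the start and outside the gene's own exons, with the motif in capitals. That of Vgll4 lies before an internal start, within the span of the gene given above. Those of Yap1, Wwtr1 and Tead3 lie outside the gene's span.
Yap1, minus strand of chr9:8004597-8004846: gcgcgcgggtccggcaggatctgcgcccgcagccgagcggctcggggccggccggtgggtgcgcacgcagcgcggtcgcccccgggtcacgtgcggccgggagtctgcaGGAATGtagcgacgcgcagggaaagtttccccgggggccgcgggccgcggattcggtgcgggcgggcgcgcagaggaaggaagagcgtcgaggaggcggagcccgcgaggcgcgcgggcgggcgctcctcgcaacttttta
Wwtr1, minus strand of chr3:57575911-57576160: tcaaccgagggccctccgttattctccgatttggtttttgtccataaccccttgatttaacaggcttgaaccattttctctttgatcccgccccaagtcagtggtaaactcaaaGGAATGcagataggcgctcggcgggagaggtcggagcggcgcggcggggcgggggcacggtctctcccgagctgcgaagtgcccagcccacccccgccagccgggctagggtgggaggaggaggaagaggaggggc
Tead3, minus strand of chr17:28350818-28351055: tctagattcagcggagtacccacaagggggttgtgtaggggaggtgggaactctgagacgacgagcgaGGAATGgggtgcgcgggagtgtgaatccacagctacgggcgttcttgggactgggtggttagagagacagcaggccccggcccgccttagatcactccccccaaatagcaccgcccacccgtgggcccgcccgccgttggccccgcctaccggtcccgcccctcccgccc
Vgll4, minus strand of chr6:114969204-114969453: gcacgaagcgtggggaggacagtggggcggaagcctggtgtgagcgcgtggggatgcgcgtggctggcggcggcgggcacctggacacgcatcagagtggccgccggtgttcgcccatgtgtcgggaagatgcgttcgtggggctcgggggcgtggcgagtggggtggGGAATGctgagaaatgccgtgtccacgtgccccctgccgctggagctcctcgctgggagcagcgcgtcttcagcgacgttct
In these windows the motif began 141 bases before the start in Yap1, 136 in Wwtr1, 182 in Tead3 and 82 in Vgll4. A match of 6 letters is a description of the window and not a binding site.

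Yap CKO retinas were compared with control retinas to ask what the Müller cell deletion of Yap does in the retina at P60. The groups also differ in the presence of the Cre itself and in sex, with all controls male and only Yap CKO 3 male among Yap CKO. Lens transcripts in the Yap CKO group are a further difference, and these cannot be told apart from the deletion. Yap1, the targeted gene, had 15.2, 21.4 and 24.0 CPM in Yap CKO 1, 2 and 3, against 66.3, 60.4 and 56.9 CPM in control 1, 2 and 3. Every Yap CKO library was below every control library, and the highest Yap CKO value belonged to Yap CKO 3, the male library with the most lens transcripts. By edgeR's quasi-likelihood test on the 6 libraries, with Benjamini-Hochberg adjustment over 16539 genes, Yap1 fell to 0.329 of its control level (log2 fold change -1.60, SE 0.17, adjusted p = 0.0327). It was the 1 gene of the 7 that passed, beside 0.2% of all genes called in either direction, 0.181% lower and 0.0181% higher. Without adjustment, at a p under 0.05, Yap1 and Wwtr1 were lower and none of the 7 was higher, beside 9.25% of all genes lower and 8.59% higher. The authors' deposited table, in which no other of the 7 genes is listed, gives Yap1 a log2 fold change of -1.60 and an adjusted p of 3.37e-13. By its name, that table holds only genes selected by p-value, fold change and expression in this comparison. Absence from it therefore does not mean that a gene was unchanged. Over 17 other fits the adjusted p ran from 5.37e-18 to 0.167 and the direction stayed the same. Leaving out control 1 ended the call (adjusted p = 0.111), as did leaving out control 2 (0.106) or Yap CKO 2 (0.167), a block for the replicate number (log2 -1.62, adjusted p = 0.0732) or a term for sex (log2 -1.35, adjusted p = 0.0658). Since all controls were male, the fit with sex compares only Yap CKO 3 with the 3 controls and is no adjustment of the group difference.

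**Figure D1:**
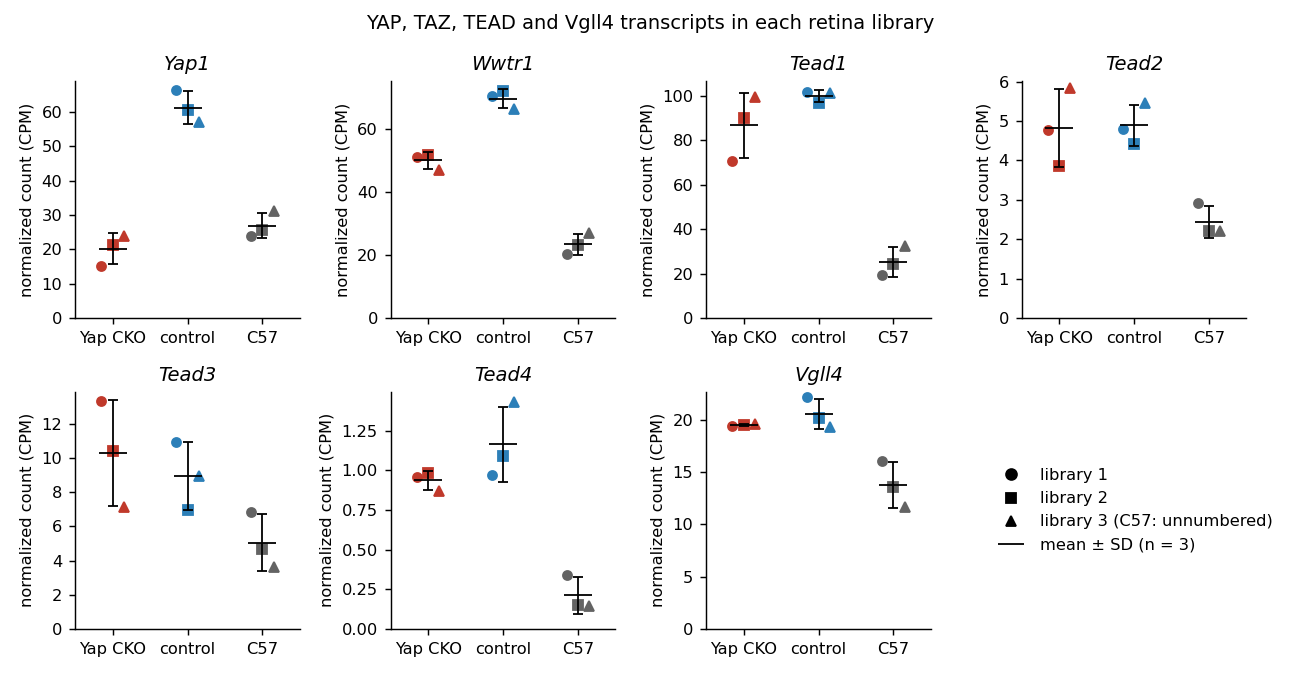
Normalized counts (CPM, TMM-scaled over 9 libraries, linear axes from 0) of the 7 genes in the 3 Yap CKO, 3 control and 3 C57 libraries, with each library as a symbol and the mean ± SD as a bar (n = 3). The Yap CKO libraries sit at 15.2 to 24.0 CPM for Yap1, below all controls (56.9 to 66.3), and for the other 6 genes both P60 groups lie above C57.

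Wwtr1 had 51.2, 51.8 and 47.0 CPM in Yap CKO 1, 2 and 3, against 70.5, 72.0 and 66.4 CPM in control 1, 2 and 3. The paralog was thus not higher where Yap1 was lost: all 3 Yap CKO libraries were below all controls, as for 12.2% of all genes. The log2 fold change was -0.48 (SE 0.07, edgeR adjusted p = 0.0515), just outside the threshold, and 0.716 of the control level on a linear scale. Wwtr1 passed in 4 of 17 other fits, namely with DESeq2 (log2 -0.49, adjusted p = 2.89e-06), without a filter on low counts (0.00494), with sex as a covariate (0.0421), a fit that leaves 1 library, Yap CKO 3, against the controls, and without Yap CKO 3 (log2 -0.44, adjusted p = 0.0144), and the adjusted p over all of them ran up to 0.204. Markers of Müller glia also leaned down between these groups, with negative values for 10 of 10 (median log2 -0.12), 0 of which edgeR or limma-voom called, while DESeq2 called 1 lower and 2 had an unadjusted p under 0.05. Ciliary epithelium markers were negative in 4 of 5 (median log2 -0.62), with 0 called by edgeR or limma-voom, 2 lower by DESeq2 and 3 lower without adjustment. Other lists did not lean down. Positive values were found for 7 of 7 endothelial and mural markers (median log2 0.19) and 5 of 7 pigment epithelium markers (0.09). The same held for 6 of 6 lens markers tested, 5 of 10 rod markers and 3 of 6 microglia markers. In these lists edgeR, DESeq2 and limma-voom called 0. Gfap, raised in reactive glia, was at 660.8, 678.8 and 551.7 CPM in Yap CKO and 354.2, 236.6 and 309.6 CPM in control, without overlap (log2 1.07, edgeR adjusted p = 0.0533). It is 1 of 5 astrocyte markers, of which 3 were positive and 2 negative (median log2 0.14). Of these, edgeR and limma-voom called 0, and DESeq2 called 1 higher and 1 lower. Aldh1l1 went the other way, at 43.9, 51.9 and 72.7 CPM in Yap CKO and 94.5, 74.4 and 111.8 CPM in control, without overlap. The part of these cell types in the values of Yap1 and Wwtr1 was not tested. Relative to the mean of the Müller glia markers in the same library, Yap1 differed by -1.40 and Wwtr1 by -0.29 on the log2 scale (exact two-sided permutation p = 0.1 and 0.3, where 0.1 is the smallest that 3 against 3 libraries allow).

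Within each library, Yap1 made up 13.3%, 17.5% and 20.9% of the summed Yap1 and Wwtr1 level per length in Yap CKO 1, 2 and 3, against 32.7%, 30.2% and 30.7% in control 1, 2 and 3. The groups did not overlap. The log2 ratio of Yap1 to Wwtr1 was -2.29 ± 0.39 in Yap CKO and -1.14 ± 0.09 in control (SD, n = 3 each), a difference of -1.145 (exact two-sided permutation p = 0.1, the smallest possible). The difference stayed between -1.33 and -0.94 when any 1 library was left out. Yap1 thus lay lower in Yap CKO retinas relative to its paralog as well as relative to all genes. The sum of both coactivators was 12.65 ± 0.44 CPM per kilobase (RPKM) in Yap CKO and 21.2 ± 1.01 in control, with no overlap (exact p = 0.1).

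The TEAD factors, which carry the DNA-binding TEA domain, did not pass in this comparison: 0 of 4 by edgeR, at an unadjusted p under 0.05, by DESeq2 or by limma-voom. Tead1, the most abundant of them, had 70.6, 89.9 and 99.5 CPM in Yap CKO 1, 2 and 3, against 101.6, 96.96 and 101.2 CPM in control 1, 2 and 3 (log2 -0.21, SE 0.12, edgeR adjusted p = 0.412). Only Yap CKO 1 and 2 were below all controls. Tead3 had 13.3, 10.4 and 7.14 CPM in Yap CKO 1, 2 and 3, against 10.9, 6.96 and 8.97 CPM in control 1, 2 and 3 (log2 0.20, adjusted p = 0.738). In Yap CKO, Tead1 was lowest and Tead3 highest in library 1, and the reverse held in library 3. The rod marker mean was 9.77, 8.87 and 5.67 in the same 3 libraries and 9.66, 7.44 and 8.65 in control 1, 2 and 3, so Tead3 followed the order of the rod markers within both P60 groups, and the part of rod content in its level was not tested. Tead2 had 4.78, 3.85 and 5.82 CPM in Yap CKO and 4.79, 4.43 and 5.45 CPM in control, with a log2 fold change of -0.03 whose sign differed between settings, and Tead4 had 0.960, 0.983 and 0.871 CPM in Yap CKO and 0.973, 1.09 and 1.43 CPM in control (log2 -0.32, adjusted p = 0.491).

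Vgll4, which binds TEAD through its Tondu domains in place of YAP, had 19.4, 19.6 and 19.6 CPM in Yap CKO 1, 2 and 3, against 22.2, 20.2 and 19.3 CPM in control 1, 2 and 3. The ranges overlapped, and the log2 fold change was -0.08 (SE 0.08, edgeR adjusted p = 0.654). With the coactivators lower and Vgll4 close to its control level, Vgll4 per unit of summed Yap1 and Wwtr1 was 0.291, 0.275 and 0.293 in Yap CKO, against 0.187, 0.173 and 0.179 in control (exact p = 0.1, no overlap). The ratio of summed coactivators to summed TEAD genes was 1.46, 1.42 and 1.26 in Yap CKO, against 2.11, 2.29 and 1.94 in control (exact p = 0.1, no overlap). Such ratios compare transcripts per length and say nothing of protein. Over all 7 genes the median log2 fold change was -0.21, beside 0.01 for all 16539 genes tested, and 6 of 7 values were negative.

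**Figure D2:**
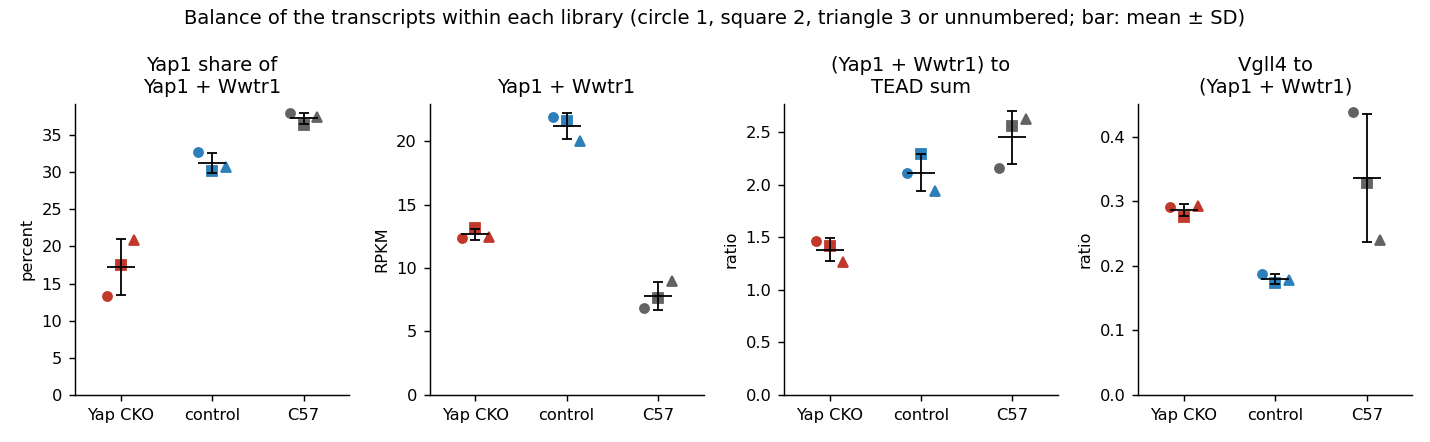
Within-library balance of the transcripts per length in Yap CKO, control and C57 (3 libraries each, symbols, mean ± SD as bars, linear axes from 0): Yap1 as a percent of Yap1 plus Wwtr1, the sum of both in RPKM, their ratio to the 4 TEAD genes, and Vgll4 relative to them. Yap CKO libraries lie at 13.3% to 20.9% for the Yap1 share, below controls at 30.2% to 32.7%.

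Control retinas at P60 were then set against C57 retinas at P30. These groups differ in age, floxed allele, injection, whatever MNU denotes, source series, depth and sex, and these cannot be told apart. All 7 genes rose, and in all 7 every control library was above every C57 library. Tead4, with at most 4 counts in a C57 library, passed the low count filter only through the control libraries. Its call and its lack of overlap are thus partly set by the filter. Of all 15820 genes tested, 45.5% were called, 23.1% higher and 22.4% lower, and 30.3% had no overlap with control higher. The median log2 fold change of the 7 genes was 1.20, beside 0.03 for all genes. Tead1 had 101.6, 96.96 and 101.2 CPM in control 1, 2 and 3, against 19.4, 24.2 and 32.5 CPM in C57 1, 2 and the unnumbered library, which is 3.99-fold (log2 1.996, SE 0.18, edgeR adjusted p = 0.000161). Wwtr1 had 70.5, 72.0 and 66.4 CPM in control, against 20.2, 23.3 and 26.9 CPM in C57, or 3.01-fold (log2 1.59, SE 0.13, adjusted p = 0.000102). Yap1 had 66.3, 60.4 and 56.9 CPM in control against 23.9, 25.8 and 31.1 CPM in C57, or 2.30-fold (log2 1.20, SE 0.13, adjusted p = 0.000348). The authors' deposited table gives Yap1 a log2 fold change of 1.19 here, with an adjusted p of 8.64e-09. That Wwtr1 rose by more than Yap1 shows in their log2 ratio, which was -1.14 ± 0.09 in control and -0.75 ± 0.05 in C57 (SD, n = 3 each), with no overlap (exact p = 0.1).

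The smaller TEAD genes and Vgll4 also rose. Tead2 averaged 4.89 ± 0.52 CPM in control and 2.45 ± 0.41 in C57 (log2 1.03, adjusted p = 0.00362), and Vgll4 averaged 20.6 ± 1.46 CPM in control and 13.8 ± 2.24 in C57 (log2 0.60, adjusted p = 0.0127; SD, n = 3 each). Tead3 averaged 8.95 ± 1.98 CPM in control and 5.05 ± 1.65 in C57 (log2 0.86, adjusted p = 0.0312). Its call was lost without control 1 (adjusted p = 0.107), control 3 (0.0887), C57 2 (0.1095) or the unnumbered C57 library (0.0666), over a range of 0.00619 to 0.1095 in 17 other fits. The Vgll4 call was lost without control 1 (0.0563) or C57 2 (0.0525), over a range of 0.00205 to 0.0563. Tead4 was near the limit of detection in C57, with 37, 44 and 59 counts in control 1, 2 and 3, against 4, 2 and 2 counts in the C57 libraries. The ratio of summed counts per effective library size was 5.75, with an exact 95% counting interval of 2.84 to 13.6, and such intervals cover counting error only.

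Markers of other cell types differed between these groups as well. Of 10 Müller glia markers, 9 fell and 1, the transcription factor gene Sox9, rose in control against C57 (median log2 -1.90), among them Glul, the glutamine synthetase of Müller cells, at 796 to 1083 CPM in control and 4022 to 4276 CPM in C57. All 10 rod markers fell (median log2 -3.33), whereas of 7 endothelial and mural cell markers 1 rose, 1 fell and 5 did not pass (median log2 -0.20). Of 7 pigment epithelium markers 6 fell and 1 rose (median log2 -1.15). Of 6 microglia markers 3 fell and 3 did not pass (median log2 -0.53). Markers of astrocytes rose in 3 of 5 (Gfap among them) and fell in 1. Ciliary epithelium markers rose in 4 of 5 tested. The part of these cell types in the rise of the 7 genes was not tested. Measured against the Müller glia marker mean of the same library, all 7 genes were higher in control (exact p = 0.1 each). On log2(CPM + 1) the differences ran from 2.18 for Vgll4 to 3.59 for Tead1. The added 1 shrinks the value of Tead4, which had few counts, so its place in that range is not informative. That mean was itself lower in control (6.64 to 7.09) than in C57 (8.45 to 8.57). A gene with equal CPM in both groups would thus also come out higher, and the measure cannot tell a gain of the 7 genes from the fall of the markers.

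**Figure D3:**
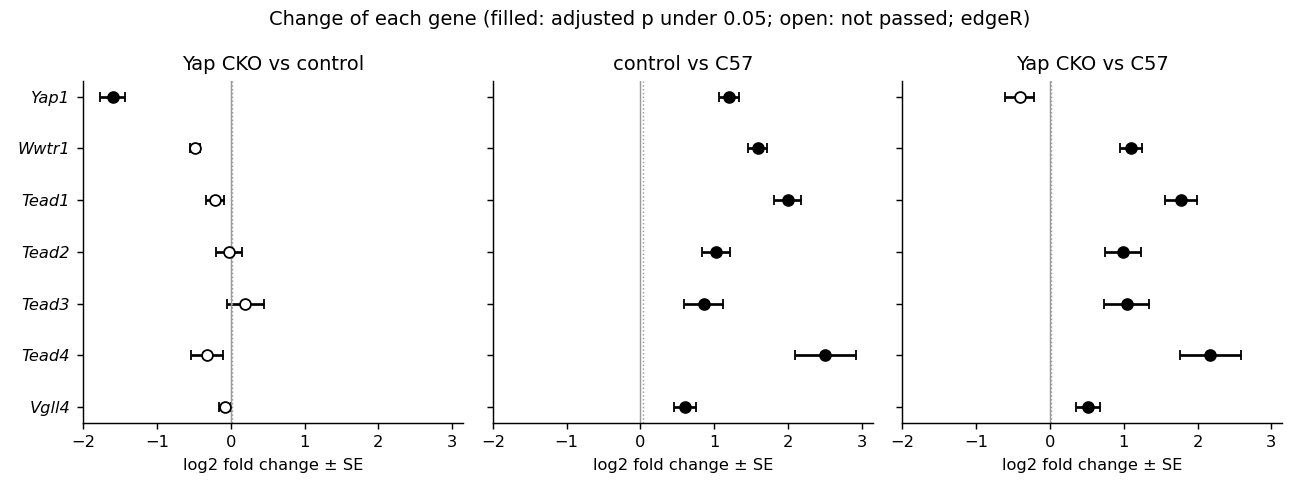
Log2 fold change ± SE of the 7 genes in Yap CKO against control, control against C57 and Yap CKO against C57 (edgeR, 6 libraries per fit), with filled points where the adjusted p was under 0.05 and a dotted line at the median of all genes. Yap1 is the 1 filled point in the first panel, at -1.60, all 7 points are filled in the second, and Yap1 alone is open in the third, at -0.41. Against C57, Tead4 passed the low count filter only through the P60 libraries.

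Yap CKO retinas were also compared with C57, with the C57 libraries shared with the comparison above. The groups differ in the Cre and the Yap deletion, and in age, floxed allele, injection, whatever MNU denotes, source series and depth, and these cannot be told apart. Here 6 of the 7 genes rose without overlap between the groups, and the exception was Yap1. Among the 6, Tead4 again passed the low count filter only through the P60 libraries, so its call is partly set by the filter. Of all 15840 genes 40.5% were called, 20.3% higher and 20.2% lower, and 28.1% had no overlap with Yap CKO higher. Yap1 had 15.2, 21.4 and 24.0 CPM in Yap CKO, against 23.9, 25.8 and 31.1 CPM in C57, and the groups overlapped through Yap CKO 3 and C57 1. Its log2 fold change was -0.41 (SE 0.20, edgeR adjusted p = 0.126), and it did not pass in any of 17 other fits (adjusted p from 0.066 to 0.356). The authors' deposited table likewise gives -0.41, with an adjusted p of 0.0659. Relative to the Müller glia marker mean, however, Yap1 stood 1.39 higher in Yap CKO than in C57 on the log2 scale (exact p = 0.1, no smaller value being possible), so its direction depends on what it is measured against. The marker mean was itself 6.57 to 6.80 in Yap CKO and 8.45 to 8.57 in C57, so a gene with equal CPM would also come out higher.

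In the other 6 genes both P60 groups lay above C57. Tead1 had 70.6, 89.9 and 99.5 CPM in Yap CKO against 19.4, 24.2 and 32.5 CPM in C57 (3.43-fold, log2 1.78, SE 0.21, edgeR adjusted p = 0.000488), and Wwtr1 had 51.2, 51.8 and 47.0 CPM against 20.2, 23.3 and 26.9 CPM (2.14-fold, log2 1.10, SE 0.15, adjusted p = 0.000758). The log2 fold changes were 0.99 for Tead2, 1.04 for Tead3 and 0.51 for Vgll4 (adjusted p = 0.0128, 0.0256 and 0.0336), and Tead4 had 38, 38 and 35 counts in Yap CKO against 4, 2 and 2 in C57, a ratio of 4.60 with a counting interval of 2.26 to 10.9. Tead3 lost its call without Yap CKO 1 (adjusted p = 0.0897), Yap CKO 2 (0.0747), C57 2 (0.0951) or the unnumbered C57 library (0.0635), over a range of 0.000551 to 0.0951 in 17 other fits. Vgll4 lost it without any 1 of 5 libraries (all but C57 1; adjusted p 0.0723 to 0.114, and 0.00767 to 0.175 over 17 other fits) and Tead2 without C57 2 (0.0599, over a range from 0.00335). Yap1 made up 36.4% to 37.9% of the summed coactivator level in C57, above the 13.3% to 20.9% of Yap CKO.

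Within every group Wwtr1 and Tead4 stood at the ends of the order of levels per exon length. Levels between genes are compared in RPKM on the union of annotated exons. In Yap CKO the order was Wwtr1 (10.5 ± 0.55 RPKM), Tead1 (6.39 ± 1.08), Vgll4 (3.62 ± 0.02), Yap1 (2.18 ± 0.49), Tead3 (1.53 ± 0.46), Tead2 (1.01 ± 0.21) and Tead4 (0.261 ± 0.016; SD, n = 3). Among neighbours there, Yap1 overlapped with Tead3 and Tead3 with Tead2. In control it was Wwtr1 (14.6 ± 0.61 RPKM), Tead1 (7.36 ± 0.19), Yap1 (6.61 ± 0.52), Vgll4 (3.81 ± 0.27), Tead3 (1.33 ± 0.29), Tead2 (1.02 ± 0.11) and Tead4 (0.324 ± 0.066), with overlap between Tead1 and Yap1 and between Tead3 and Tead2. C57 retinas had Wwtr1 (4.91 ± 0.70 RPKM), Yap1 (2.91 ± 0.40), Vgll4 (2.55 ± 0.41), Tead1 (1.87 ± 0.49), Tead3 (0.752 ± 0.246), Tead2 (0.511 ± 0.085) and Tead4 (0.0586 ± 0.0317), with overlap from Yap1 through Vgll4 to Tead1 and between Tead3 and Tead2. The 3 places at the low end were the same in every group, and the places above them changed with the length measure: with the longest annotated transcript, Vgll4 stood second in Yap CKO (8.89 RPKM, overlapping with Tead1) and first in C57 (6.26 RPKM, overlapping with Yap1). Shares between genes shift with the length too: the Yap1 share became 26.3 ± 5.195% in Yap CKO and 43.8 ± 1.52% in control, against 50.5 ± 0.819% in C57, still without overlap.

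**Figure D4:**
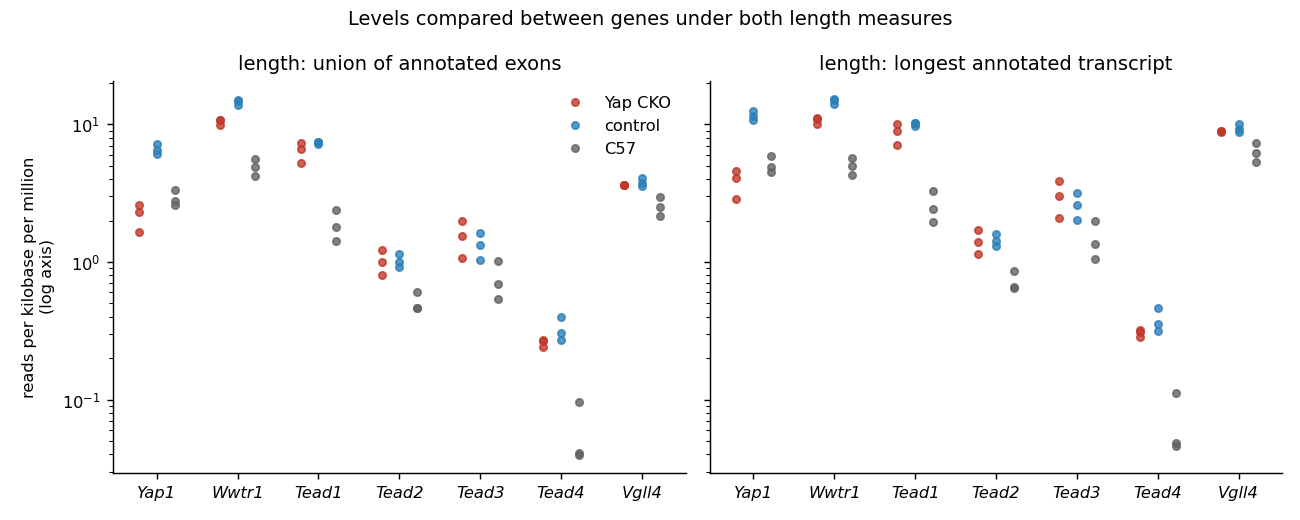
Levels of the 7 genes in RPKM (log axis), per library, in Yap CKO, control and C57, with length taken as the union of annotated exons (left) or the longest annotated transcript (right). Tead4 is lowest in all groups on both scales. Vgll4 moves up on the right because its longest transcript is a smaller part of its exon union than in any other of the 7 genes.

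Tead1 had the highest level per exon length of the 4 TEAD genes in every group. It made up 61.6%, 71.6% and 74.4% of the summed TEAD level per length in Yap CKO 1, 2 and 3 and 72.1%, 75.9% and 72.2% in control 1, 2 and 3, against 45.3%, 59.8% and 69.7% in the C57 libraries. Control and C57 did not overlap in this share (exact p = 0.1), and Yap CKO overlapped with both. The summed TEAD level was 9.19 ± 0.70 RPKM in Yap CKO and 10.04 ± 0.54 in control, against 3.19 ± 0.23 in C57 (SD, n = 3 each), and Yap CKO and control overlapped. The C57 libraries were themselves uneven in a way that crossed genes: C57 1 was lowest of its group for Yap1, Wwtr1 and Tead1 and highest for Tead2, Tead3, Tead4 and Vgll4.

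The genes whose profile was most like each of the 7 were sought among 11350 genes, by the mean absolute difference of log2(CPM + 1) over the 9 libraries after centring each gene on its own mean. For Yap1 these were Slc7a2, a cationic amino acid transporter (0.21), Fbn1, which encodes fibrillin 1 (0.21), and Timp3, an inhibitor of matrix metalloproteinases (0.23). Slc7a2 averaged 37.0 CPM in Yap CKO and 81.9 in control, against 38.7 in C57. For Wwtr1 they were Ell2, a transcription elongation factor (0.078), the kinase gene Cdk17 (0.095) and Gcnt2 (0.097), and for Tead1 they were Anxa7, E2f1 and Vwa5a (0.12 to 0.14). Tead2 lay closest to Kirrel2 (0.034), Tead3 to Hook2 (0.14), Tead4 to Cacna1b (0.067) and Vgll4 to the transcription factor gene Tfe3 (0.022). None of the 3 nearest genes of Tead4 stayed so with a pseudocount of 0.25. Among the 7 genes, Yap1 lay at 0.57 (Tead4 and Wwtr1) to 0.78 (Tead1) from the others, and Tead1 at 0.25 (Wwtr1) to 0.59 (Vgll4) from those other than Yap1. Tead4 lay at 0.142 to 1.43 CPM, where the added 1 flattens a profile. Its distances, that to Yap1 included, therefore do not show a shared profile.

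Genes around these 7 in the pathway were described from lists. Of 15 Hippo kinases and upstream regulators, 14 were negative in Yap CKO against control (median log2 -0.20, 0.01 over all genes), and edgeR and limma-voom called 0, while DESeq2 called 4 lower and 6 were lower at an unadjusted p under 0.05. Of all genes, DESeq2 called 3.75% lower and 2.41% higher, limma-voom called 0.0907% in either direction, and 9.25% were lower without adjustment. The smallest p belonged to Taok1, an upstream kinase, at 94.2 ± 5.69 CPM in Yap CKO and 123.9 ± 3.67 in control (log2 -0.40, adjusted p = 0.0646), followed by the kinase gene Lats1 (log2 -0.33) and its activators Mob1b (-0.50) and Mob1a (-0.37). Of 7 angiomotins and other binding partners of YAP or LATS, 6 were negative and again 0 were called by edgeR or limma-voom (2 lower with DESeq2, and 3 when p was left unadjusted). Ptpn14, which binds YAP and is also a YAP target, was at 5.06 ± 1.22 CPM in Yap CKO and 11.1 ± 0.55 in control (log2 -1.14, adjusted p = 0.0619). The 14-3-3 genes had a median log2 of -0.01 over 7 genes and 0 called by edgeR, at an unadjusted p under 0.05, by DESeq2 or by limma-voom. Of the other vestigial-like genes, Vgll1 and Vgll2 had 0 counts in all 9 libraries, and Vgll3 was at 1.69 ± 0.51 CPM in Yap CKO and 2.48 ± 0.39 in control (adjusted p = 0.314).

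Among 21 tested members of a YAP/TAZ target signature, 16 were negative in Yap CKO against control, and the count of calls was 0 by edgeR, 0 by limma-voom and 5 lower by DESeq2, with 6 lower and 1 higher when p was left unadjusted (all genes: 3.75% lower by DESeq2, and 9.25% lower and 8.59% higher unadjusted). Ccn1, a secreted matricellular protein, was at 23.9 ± 4.40 CPM in Yap CKO and 57.3 ± 13.2 in control, and Axl, a receptor tyrosine kinase, at 156.5 ± 47.7 and 319 ± 11.1 CPM (SD, n = 3 each; adjusted p = 0.0714 and 0.102). Among the 5 positive genes were Gadd45a, the 1 higher without adjustment (log2 0.49), and Ccn2 (log2 0.44; edgeR adjusted p = 0.269 and 0.362). In control against C57, 13 of the 21 rose and 2 fell, and in Yap CKO against C57 12 rose and 2 fell, beside 23.1% and 20.3% of all genes called higher. Ccn1 was at log2 3.85 in control against C57 and at 2.57 in Yap CKO against C57 (edgeR adjusted p = 4.28e-05 and 0.00018). Of the 15 kinases and regulators, 3 were higher and 3 lower in each comparison with C57, near the shares of all genes (23.1% higher and 22.4% lower in control, 20.3% and 20.2% in Yap CKO). Of the binding partners, 5 of 7 rose in control and 4 of 7 in Yap CKO. Lats2, Amotl2 and Ptpn14 are in more than 1 of these lists.

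**Figure D5:**
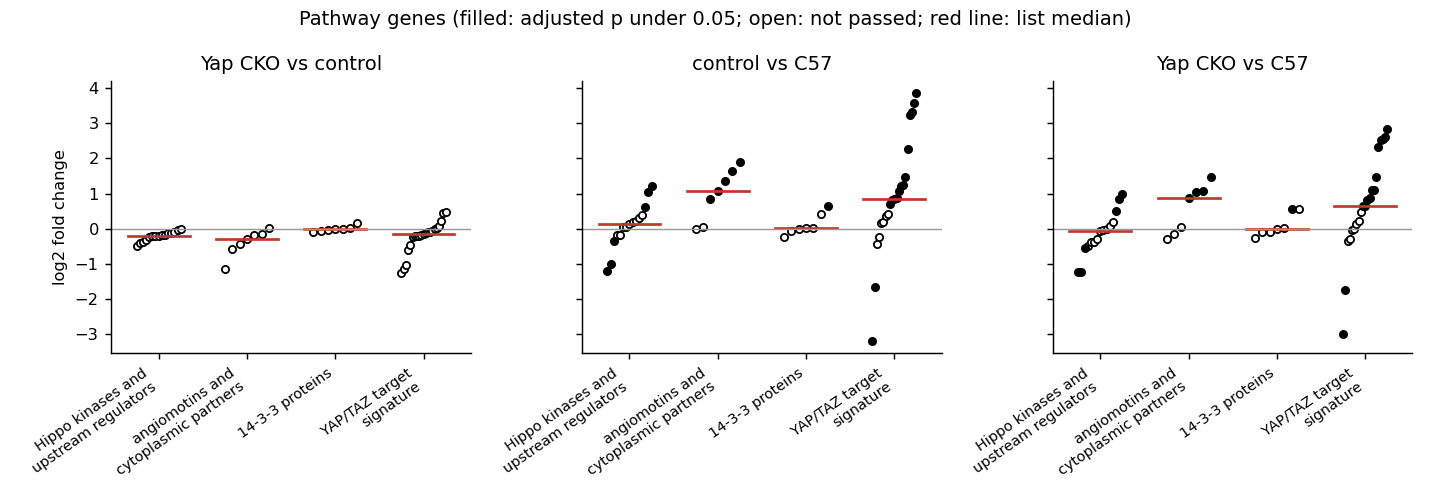
Log2 fold changes of the pathway genes in the 3 comparisons, 1 point per gene, filled where the edgeR adjusted p was under 0.05, with the list median as a red line. No point is filled in Yap CKO against control, where the 4 list medians lie between -0.29 and -0.01, while 13 target genes rose in control and 12 in Yap CKO against C57.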

How the data were processed

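Bulk RNA of mouse retinas was sequenced from directional TruSeq libraries, per the labels' protocols. The deposited read counts are whole numbers per Ensembl gene, not normalized. HISAT2 2.1.0, featureCounts, edgeR and GRCm38 are listed per the submitters' processing notes. The labels state neither the annotation release nor the strand setting. The authors' deposited comparison table of 305 genes, by its name a selection on p-value, fold change and expression, holds log2 fold changes and p-values with adjusted p-values. Its 9 columns of values per library were not used.

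Each comparison was fitted on its 6 libraries with edgeR 4.0.16 (R 4.3.3): filterByExpr (minimum count 10, minimum total 15), TMM, robust quasi-likelihood F-tests, Benjamini-Hochberg adjustment over all genes tested, threshold 0.05. DESeq2 1.42.0 and limma 3.58.1 (voom), other scalings and filters, one fit of all libraries, a replicate block, a sex covariate and leaving out each library were alternatives. Displayed CPM are TMM-scaled over 9 libraries. RPKM use exon unions of GENCODE M21, which holds 47310 of the 47729 genes. Ratios were tested by exact permutation of libraries. In pathway lists, up to 4 genes with the smallest p in Yap CKO against control were to be named. The 7 genes and the lists were chosen with earlier results of these data known. Whether equal replicate numbers pair Yap CKO and control libraries cannot be settled from so few libraries. Deviations from group means correlated at 0.528, -0.077 and 0.01 for equal numbers, against -0.601 to 0.485 for unequal numbers.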

Additional observations from a re-analysis of the deposited data

How the results depend on the processing

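Over the alternatives run, no log2 fold change that passed in its own comparison changed sign there. For Yap1 in Yap CKO against control the log2 fold change ran from -1.75 to -1.43 when 1 library was left out. Yap1 missed the threshold without Yap CKO 2, control 1 or control 2 (edgeR adjusted p = 0.167, 0.111 and 0.106) and with the replicate block (-1.623). When sex was added to the model, the Yap1 value was -1.35, in a fit that sets Yap CKO 3 alone against the 3 controls for every gene. The change of Yap1 in control against C57 became 2.79 relative to the Müller glia marker mean, and in Yap CKO against C57 it became 1.39, the opposite sign. That marker mean was itself lower in both P60 groups than in C57. Replicate numbers are shared by title only. The block changed the Yap1 call, and against C57, where it could use only numbers 1 and 2, it also ended the calls of Tead3 (adjusted p = 0.0622) and Vgll4 (0.051) in control and of Tead2 (0.0561) and Vgll4 (0.175) in Yap CKO.

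The number of the 7 genes called in Yap CKO against control was 1, but 2 with DESeq2 or without a low count filter, 0 with the replicate block, and 0 to 2 without 1 library. Against C57 it was 5 to 7 in control and 3 to 6 in Yap CKO without 1 library, 3 being without C57 2. Calls over all genes in Yap CKO against control numbered 33, with 15 under RLE scaling, TMM without the 50 highest genes, a filter of 1 CPM in 3 libraries, limma-voom or bias-adjusted deviances, 17 under upper-quartile scaling, 60 in the fit of all 9 libraries, 67 with sex as a covariate, 343 without a low count filter, 919 with DESeq2 and 0 to 1473 without 1 library. They numbered 3905 to 8013 in Yap CKO against C57 without 1 library, beside 6419. In the pathway lists, 0 genes were called in Yap CKO against control, and 2 were called in the fit of all 9 libraries, 7 without a low count filter, 10 with DESeq2 and up to 12 without 1 library (Yap CKO 3).

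The other signs that turned were those of values that had not passed, all in Yap CKO against control. Tead2 became 0.25 with sex as a covariate, 0.016 under upper-quartile scaling, 0.148 relative to the Müller glia markers and -0.188 to 0.105 without 1 library. Tead3 became -0.324 with sex as a covariate and -0.027 to 0.402 without 1 library. Relative to the Müller glia markers, on log2(CPM + 1), Tead4 became 0.021 and Vgll4 0.108. The added 1 is close to the level of Tead4 itself and shrinks its differences. The turn of its sign therefore rests on that scale and cannot be read as a result. With the longest transcript as length, places changed to 3 for Tead1 and 2 for Vgll4 in Yap CKO, 2 for Yap1 and 3 for Tead1 in control, and 3 for Wwtr1 and 1 for Vgll4 in C57. Random thinning of the P60 counts to C57 depth, chosen after seeing the data, ended no call among the 7 genes. The cause of each shift was not tested. Tead4 had only 8 counts over the 3 C57 libraries.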
